A study of Rattus norvegicus with 9 samples.

Results

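Focal adhesion adaptors are the proteins that fasten integrins, the cell's receptors for extracellular matrix, to actin filaments. The mRNAs of 10 of them are described here in rat bladder: Lims1, Lims2, Ilk, Parva, Parvb, Tns1, Vcl, Tln1, Pxn and Zyx. These 10 genes were chosen by name, with earlier results of these data known. Each gene was read from every probe set (a group of short probes summarised as 1 value) that the platform annotation gives to that gene alone, which took 17 of the 31042 probe sets and 10 of the 14217 genes on the array. Where a gene had several probe sets, the one with the highest mean over the 9 arrays comes first and stands for the gene in the counts. Values are log2 signals, on which a difference of 1 is a 2-fold difference.

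The arrays came from 3 groups of 3 tissues of female SD rats, given in the labels as 10 weeks old, and no allele or transgene is named for any of them. The tumor group was bladder transitional cell carcinoma (BTCC) induced by MNU, an alkylating carcinogen, put into the bladder at 20 mg/ml once a week for 10 weeks. The adjacent group was non-tumor bladder tissue of the same 3 tumor-bearing rats. The normal group was bladder of 3 normal rats by the series' design text, although the MNU protocol is entered in the labels of all 9 samples. Which layers of the bladder wall a piece held is not given, and whether the adjacent and normal pieces were cut alike is not known from the labels.

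At an adhesion, talin (Tln1) binds the tail of an integrin, unfolds under pull and exposes sites for vinculin (Vcl), which ties it to actin. A second link is the complex of integrin-linked kinase (Ilk), a pseudokinase scaffold, with 1 PINCH protein (Lims1 or Lims2) and 1 parvin (Parva or Parvb). Tensin (Tns1) marks long-lived fibrillar adhesions, paxillin (Pxn) is a docking protein for kinases, and zyxin (Zyx) sits where stress fibers are under tension. In the bladder, the smooth muscle of the detrusor carries rows of such adhesions, called dense plaques, along each cell, whereas the basal cells of the urothelium also use hemidesmosomes, built on the integrin of Itga6 and Itgb4.

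The 9 arrays shared a trimmed mean signal of 500, but their medians differed by group. Median log2 signals were 6.87 to 7.17 in tumors, 6.96 to 7.05 in adjacent tissues and 7.19 to 7.23 in normal bladders. Every tumor and adjacent median was thus below every normal one, which matters for changes as small as those of Lims1 and Pxn. Of 11 measured luminal urothelium markers 10, uroplakins among them, were above a signal of 50 (log2 of 5.64) on all 9 arrays. The exception was Krt20, the keratin of umbrella cells, with a tumor mean of 5.80 ± 1.83 (SD) against 9.62 ± 0.03 in normal bladders. The summed signal of 14 smooth muscle markers stood at 69.3%, 11.1% and 9.33% of the normal mean in tumors 1, 2 and 3, at 37.2%, 15.4% and 9.50% in adjacent tissues 1, 2 and 3, and at 97.8% to 103% in normal bladders. Tumor 1 therefore stood apart from tumors 2 and 3, and tumor changes without it are given for most of the 10 genes. It was picked for being nearest to normal by these markers, so a larger fall without it is no separate support. In whole tissue, fewer cells of a type and less RNA per cell cannot be told apart.

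Promoter windows from RefSeq (GRCr8, 250 bases before to 50 after a transcription start) were at hand for 8 of the 10 genes, 12 windows in all. Tns1 and Parva had none. Each was searched on both strands for 4 motifs. The TEAD motif GGAATG was in 3 of the 12 windows, of Vcl, Zyx and Lims2, against 14.2% of all 33469 windows. The GC box GGGCGG was in 6 windows of 5 genes, against 33.1% of all windows. The CArG box, which serum response factor binds, was in 0 of the 12 against 1.64% of all windows, and the AP-1 motif TGANTCA was in 0 against 7.33%. These are matches of letters in a short window and not measured binding sites. The matches in Lims2 and Lims1 did not lie before both the start and the annotated gene, so they are not shown. A link of motifs to signal was not tested. The stretches of 4 genes that hold matches follow, 3 with lower signal outside normal bladder and Parvb, which behaved otherwise. They read 5′ to 3′ on the strand of the gene, and capitals mark a TEAD motif or a GC box, or the reverse complement CATTCC or CCGCCC. In Vcl, 2 of the 3 GC boxes share a base.
Vcl, chr15:3404913-3404987, minus strand, 187 to 113 bases before the start: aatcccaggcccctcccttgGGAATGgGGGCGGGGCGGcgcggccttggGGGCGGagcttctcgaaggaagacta
Zyx, chr4:72203775-72203921, plus strand, 225 to 79 bases before the start: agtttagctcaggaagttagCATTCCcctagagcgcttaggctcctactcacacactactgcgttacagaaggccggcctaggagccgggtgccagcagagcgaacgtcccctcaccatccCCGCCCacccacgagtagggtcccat
Ilk, chr1:169500646-169500701, plus strand, 75 to 20 bases before the start: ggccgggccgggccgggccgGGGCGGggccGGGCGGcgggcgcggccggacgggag
Parvb, chr7:117240178-117240223, plus strand, 60 to 15 bases before the start: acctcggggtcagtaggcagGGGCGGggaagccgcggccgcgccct

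The 10 adaptors did not move as a block. In tumors against normal bladders, 5 of the 10 fell (Lims2, Tns1, Parva, Ilk and Zyx) and 0 rose at an adjusted p under 0.05 (limma, Benjamini-Hochberg over all 31042 probe sets), where 9.95% of all genes were called lower and 13.6% higher. Of the 17 probe sets 8 were called lower, against 9.08% of all probe sets. In 8 genes all 3 tumors were below all 3 normal bladders, an arrangement found in 20.1% of all genes, and in 1 gene, Pxn, all were above, as in 25.7% of all genes. At an unadjusted p under 0.05, limma named 9 of the 10, Pxn as the only higher one, where 40% of all genes passed. The median change of the 10 genes was -1.06, against 0.05 over all genes. Without tumor 1, 8 of the 10 genes were called, and without any 1 normal bladder 0 were. The share of all probe sets called moved the same way, to 29.7% without tumor 1 and to between 4.68% and 5.4% without 1 normal bladder, against 18% with all 6 arrays. Over the 6 fits that leave out 1 array, Parva was called in 3 and Lims2, Tns1, Ilk and Zyx in 1 each, the one without tumor 1.

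In adjacent tissues against normal bladders, 7 of the 10 fell (Lims2, Tns1, Parva, Ilk, Zyx, Vcl and Tln1) and 0 rose, where 11.5% of all genes were called lower and 13.3% higher. Of the 17 probe sets 11 were called lower, against 10.3% of all probe sets. All 3 adjacent tissues were below all 3 normal bladders in 8 genes and above them in 1, arrangements found in 21.9% and 24.8% of all genes. At an unadjusted p under 0.05, 8 of the 10 passed, Pxn again as the only higher one, where 39.8% of all genes passed. The median change was -1.23, against 0.01 over all genes. Both comparisons use the same 3 normal bladders, so they are not independent. Between 4 and 8 genes were called when 1 array was left out, with 8.67% to 23.2% of all probe sets called, against 18.9% with all 6 arrays. Over the 6 fits that leave out 1 array, Lims2, Tns1, Parva and Ilk were called in all 6, Zyx in 4, and Vcl and Tln1 in 3.

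**Figure D1:**
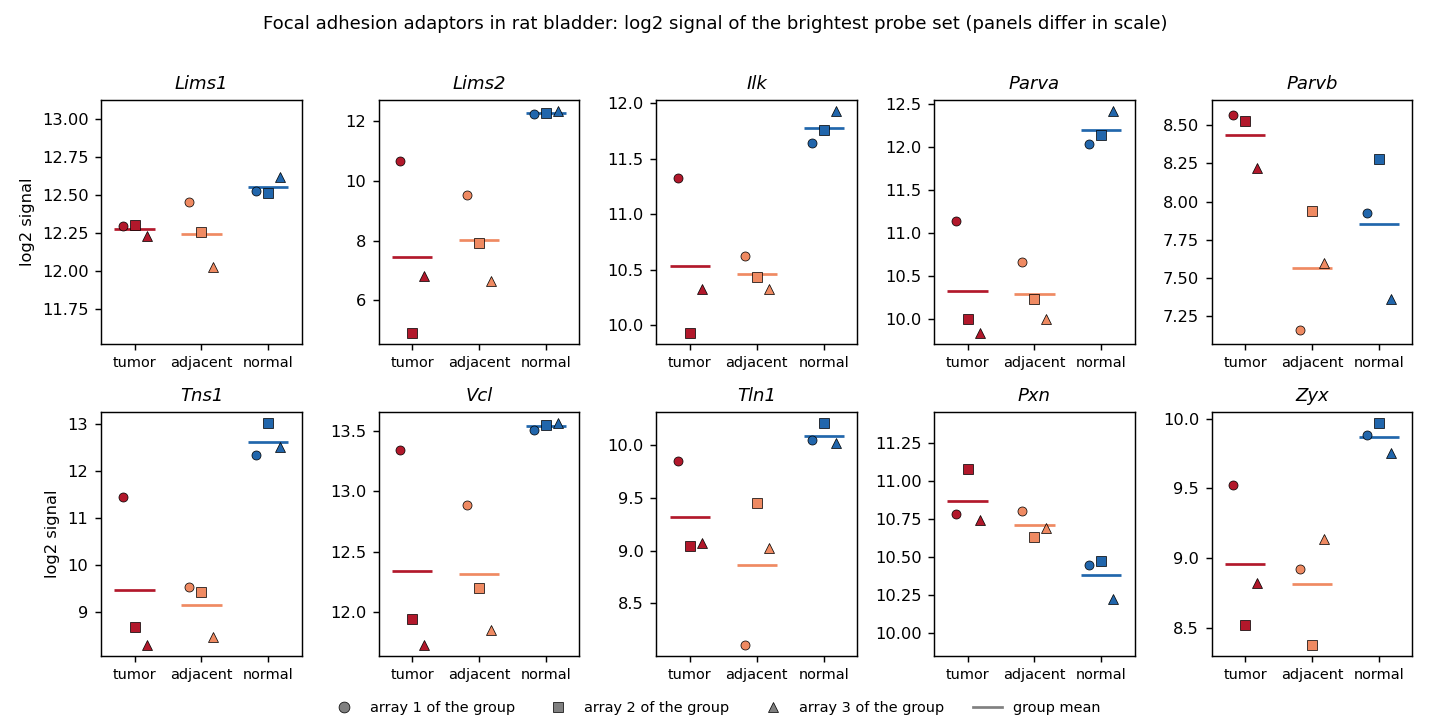
Log2 signal of the brightest probe set of each of the 10 genes, 1 panel per gene, with tumor, adjacent and normal arrays from left to right (3 points per group, line at the group mean, vertical scale set per panel). Normal bladders lie highest in 8 panels, Pxn is lowest in normal bladder, and Parvb is highest in tumors.

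The largest change was in Lims2, which encodes PINCH2, the PINCH form of muscle and other mesenchymal cells. Its log2 signals were 10.67, 4.92 and 6.81 in tumors, 9.52, 7.91 and 6.65 in adjacent tissues and 12.24, 12.26 and 12.32 in normal bladders. Normal bladders were nearly identical, and all 6 tissues of tumor-bearing rats lay below them, tumor 1 nearest and tumor 2 under a signal of 50. Lims2 fell by 4.81 in tumors (SE 1.27, adjusted p = 0.0405), to 3.57% of the normal mean, and fell by 4.25 in adjacent tissues (SE 0.61, adjusted p = 0.00356), to 5.26%. Without tumor 1 the tumor change was -6.41 (adjusted p = 7.01e-05). Without tumor 2, the dim array, it was -3.54 (adjusted p = 0.0754). Leaving out tumor 3 or any 1 normal bladder gave no call either (adjusted p = 0.118 to 0.126).

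Lims1, which encodes PINCH1, the form found in most cells, moved far less. It had log2 signals of 12.30, 12.30 and 12.23 in tumors, 12.45, 12.26 and 12.03 in adjacent tissues and 12.53, 12.51 and 12.62 in normal bladders. Neither tumors nor adjacent tissues overlapped normal bladders, and tumors lay within the adjacent range. The differences from normal bladders were -0.28 in tumors (95% interval -0.51 to -0.04, adjusted p = 0.10) and -0.31 in adjacent tissues (interval -0.62 to 0.01, adjusted p = 0.167), and neither was called. The tumor change moved with the scaling, to -0.39 and a call after quantile normalization (adjusted p = 0.0284) and to -0.075 after median centring (adjusted p = 0.772). The adjacent change was -0.36 and -0.11 under the same settings, not called. A dimmer second probe set gave -0.60 and -0.30, also not called. By the methods' t-test the tumor change of the first probe set was called, also after Benjamini-Hochberg adjustment (adjusted p = 0.0456). The log2 difference of Lims2 minus Lims1 within an array averaged -4.81 ± 2.92 in tumors, -4.22 ± 1.23 in adjacent tissues and -0.28 ± 0.02 in normal bladders (SD, n = 3 each). Since probe sets differ in brightness, only the change of this difference between groups can be read. It shifted by -4.53 in tumors and by -3.94 in adjacent tissues against normal bladders, with no overlap in either (exact permutation test, two-sided, p = 0.1 each, the smallest that 3 against 3 allows, and 0.15 adjusted over 6 such tests).

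Ilk fell by about the same amount in both tissues. Its log2 signals were 11.33, 9.93 and 10.33 in tumors, 10.62, 10.43 and 10.32 in adjacent tissues and 11.64, 11.76 and 11.92 in normal bladders. Tumor 1 was the highest of the 6 tissues of tumor-bearing rats, and none of the 6 reached the normal range. The change was -1.24 in tumors (SE 0.33, adjusted p = 0.0412), or 42.2% of the normal mean, and -1.32 in adjacent tissues (SE 0.14, adjusted p = 0.00116), or 40.2%. Without tumor 1 the tumor change was -1.64 (adjusted p = 0.000187). Leaving out any other array lost the call in tumors (adjusted p = 0.0884 to 0.136).

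The 2 parvins differed. Parva, which encodes the actin-binding alpha-parvin of muscle and most other tissues, had log2 signals of 11.14, 10.00 and 9.84 in tumors, 10.66, 10.23 and 10.00 in adjacent tissues and 12.04, 12.14 and 12.42 in normal bladders. It fell by 1.87 in tumors (SE 0.33, adjusted p = 0.0122) and by 1.90 in adjacent tissues (SE 0.19, adjusted p = 0.00111), to 27.3% and 26.7% of the normal mean. Its second probe set was called too, with changes of -0.82 and -1.14. Parva kept its call in tumors under 12 of 16 other settings, more than any other of the 10 genes. Without tumor 1 its tumor change was -2.28 (adjusted p = 2.95e-05).

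Parvb, which encodes beta-parvin, did not share the lower signal of Parva. It had log2 signals of 8.57, 8.53 and 8.22 in tumors, 7.16, 7.94 and 7.59 in adjacent tissues and 7.93, 8.28 and 7.36 in normal bladders. All 3 tumors were above all 3 adjacent tissues, by 0.88 on average (95% interval 0.24 to 1.51), but the adjusted p was 0.9997. Against normal bladders the changes were 0.58 in tumors (adjusted p = 0.169) and -0.29 in adjacent tissues (adjusted p = 0.578), with overlap in both. The other 2 probe sets gave 0.62 and 0.66 in tumors and -0.27 and 0.34 in adjacent tissues, none called. Both placed every tumor above every normal bladder, and the second of the 3 also placed every tumor above every adjacent tissue, by 0.89. The log2 difference of Parva minus Parvb averaged 1.89 ± 0.60 in tumors, 2.73 ± 0.67 in adjacent tissues and 4.35 ± 0.63 in normal bladders (SD, n = 3 each). It was lower by 2.46 in tumors and by 1.61 in adjacent tissues than in normal bladders, without overlap (exact permutation test, two-sided, p = 0.1 each, the smallest that 3 against 3 allows, and 0.15 adjusted over the same 6 tests).

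Tns1, the tensin that binds both actin and integrin tails, had the second-largest change. Its log2 signals were 11.45, 8.68 and 8.31 in tumors, 9.54, 9.43 and 8.47 in adjacent tissues and 12.34, 13.03 and 12.52 in normal bladders. Tumor 1 lay between the normal bladders and the other 5 tissues. Tns1 fell by 3.15 in tumors (SE 0.76, adjusted p = 0.0315), to 11.3% of the normal mean, and by 3.48 in adjacent tissues (SE 0.30, adjusted p = 0.000731), to 8.94%. The second probe set gave -3.57 and -3.38, both called. Without tumor 1 the tumor change was -4.13 (adjusted p = 1.55e-05). Leaving out any other array lost the call in tumors (adjusted p = 0.0895 to 0.113).

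Vcl encodes vinculin, and its 3 normal bladders hardly differed. It had log2 signals of 13.34, 11.94 and 11.73 in tumors, 12.89, 12.20 and 11.85 in adjacent tissues and 13.51, 13.55 and 13.56 in normal bladders. Tumor 1 was close to normal, at 87.0% of the normal mean, and tumors 2 and 3 were at 33.1% and 28.6%. The change in tumors, -1.20 (SE 0.39), was not called (adjusted p = 0.0751), and that in adjacent tissues, -1.22 (SE 0.24), was (adjusted p = 0.0117). Without tumor 1 Vcl was called in tumors as well, at -1.70 (adjusted p = 2.93e-05). Leaving out any other array gave no call in tumors (adjusted p = 0.177 to 0.202). The second probe set passed in both, at -1.40 (adjusted p = 0.0121) and -1.34 (adjusted p = 0.0101), and the third gave -1.48 (not called) and -1.55 (called).

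Tln1, which encodes the talin that activates integrins, was called in adjacent tissues but not in tumors with the main settings. Its log2 signals were 9.86, 9.04 and 9.07 in tumors, 8.11, 9.45 and 9.02 in adjacent tissues and 10.05, 10.21 and 10.02 in normal bladders. All 6 tissues of tumor-bearing rats were below normal, adjacent tissue 1 the lowest at 25.2% of the normal mean. The change in tumors, -0.77 (SE 0.23), was not called (adjusted p = 0.0598), and that in adjacent tissues was -1.23 (SE 0.31, adjusted p = 0.0304). Without tumor 1 Tln1 was called in tumors as well, at -1.04 (adjusted p = 0.000607), and without any 1 normal bladder its adjacent call was lost (adjusted p = 0.0956 to 0.112). Leaving out any array but tumor 1 gave no call in tumors (adjusted p = 0.143 to 0.181). With all arrays kept, leaving out low signals gave a call in tumors (adjusted p = 0.04835). The adjacent call was lost after median centring (adjusted p = 0.0504) and without a variance trend (adjusted p = 0.0914).

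Zyx fell in both. It had log2 signals of 9.53, 8.52 and 8.82 in tumors, 8.92, 8.38 and 9.14 in adjacent tissues and 9.89, 9.97 and 9.75 in normal bladders. Here tumor 1 was the highest of the 6 tissues, and none of them reached the normal range. The change was -0.91 in tumors (SE 0.25, adjusted p = 0.0479) and -1.06 in adjacent tissues (SE 0.21, adjusted p = 0.0126), or 53.2% and 48.1% of the normal mean. Without tumor 1 the tumor change was -1.20 (adjusted p = 0.000773). Leaving out any other array lost the call in tumors (adjusted p = 0.101 to 0.153).

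Pxn ran the other way. Its log2 signals were 10.78, 11.08 and 10.74 in tumors, 10.80, 10.63 and 10.69 in adjacent tissues and 10.45, 10.47 and 10.22 in normal bladders. All 6 tissues of tumor-bearing rats were above all 3 normal bladders, by 0.48 in tumors (95% interval 0.16 to 0.81, adjusted p = 0.0528) and by 0.33 in adjacent tissues (interval 0.03 to 0.63, adjusted p = 0.124). Neither difference was called with the main settings. The tumor difference was called without tumor 1 (adjusted p = 0.0269), with low signals left out (adjusted p = 0.0401), with all 9 arrays in 1 fit (adjusted p = 0.0444) and after quantile normalization (adjusted p = 0.0499). With each array centred on its median both were called, at 0.69 (adjusted p = 0.0398) and 0.53 (adjusted p = 0.0225).

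**Figure D2:**
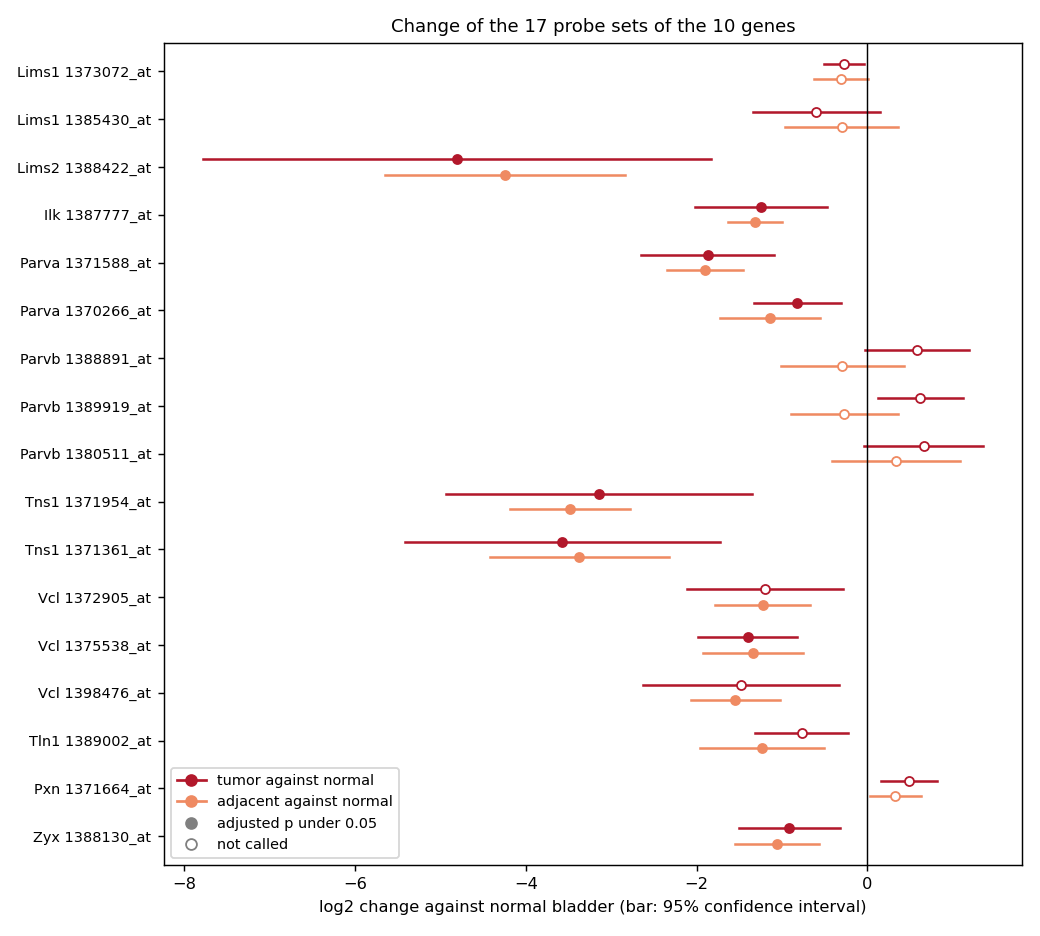
Log2 change against normal bladder of all 17 probe sets, with 95% confidence intervals, tumors above adjacent tissues in each row and filled points for an adjusted p under 0.05. Lims2 and Tns1 lie furthest left. The first probe set of Lims1 and those of Parvb and Pxn lie near 0 or to its right. The second of Lims1 lies further left in tumors. The tumor intervals are wider than the adjacent ones for Lims2, Tns1, Ilk and Parva.

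Tumors and adjacent tissues could not be separated by these genes. In the 3 tumors against the 3 adjacent tissues, 0 of the 10 passed, as did 0% of all genes in either direction and 0% of all probe sets. At an unadjusted p under 0.05 limma named 1 of the 10, Parvb, where 2.64% of all genes passed, and the methods' t-test also named 1. Parvb was the only one of the 10 whose groups did not overlap, with all tumors higher, as in 4.1% of all genes. The median difference was 0.11, and the 95% intervals of the other genes reached from -3.79 to 2.67 for Lims2 and from -0.34 to 0.40 for Lims1, so that a difference of several log2 units lay within the interval for Lims2 and none above 0.40 for Lims1.

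Among the tissues of tumor-bearing rats, the signals followed the smooth muscle markers closely for some genes and not for others. Over those 6 arrays, which come from 3 rats, Pearson's r with the log2 of the summed smooth muscle markers was 0.998 for Vcl, 0.99 for Parva, 0.94 for Tns1, 0.91 for Lims2 and 0.89 for Ilk. It was 0.59 for Zyx and for Lims1, 0.14 for Tln1, 0.01 for Parvb and -0.04 for Pxn. No r was computed without tumor 1, which held the highest smooth muscle sum of the 6, at 69.3%. Adjacent tissue 1 held the second-highest smooth muscle sum of the 6, at 37.2%, and the lowest Tln1. Of the 14 smooth muscle markers, 6 were called lower in tumors and all 14 in adjacent tissues, with medians of -3.58 and -3.00, and without tumor 1 all 14 were called in tumors. The markers' part in the change of the adaptors was not tested. The fibroblast markers summed to 76.4%, 7.49% and 17.8% of the normal mean in tumors and to 63.7%, 51.2% and 21.4% in adjacent tissues, with 0 of 8 called in tumors and 5 of 8 called lower in adjacent tissues. Basal epithelium markers summed to 230.0% to 368% in tumors and 243% to 356% in adjacent tissues, leukocyte markers to 182% to 224% and 191% to 363%, and markers of dividing cells to 406% to 886% and 344% to 827%. Skeletal muscle markers, of which 2 of 7 stayed under a signal of 50 on all arrays, summed to 22.5% to 75.3% in tumors and 31.2% to 32.1% in adjacent tissues. Their part in the adaptors' values was not tested either.

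**Figure D3:**
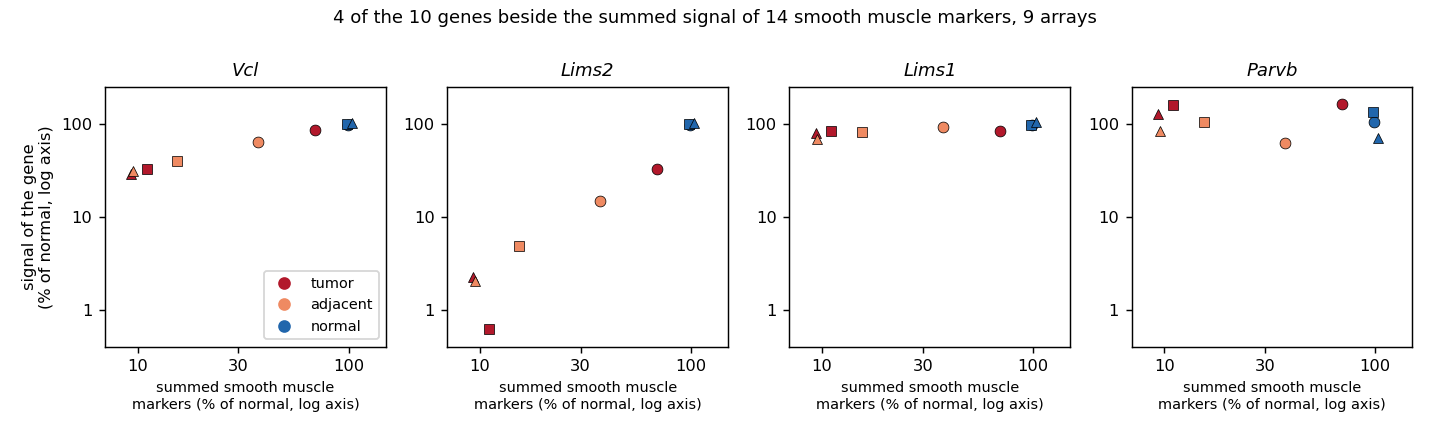
Signal of Vcl, Lims2, Lims1 and Parvb in each of the 9 arrays (vertical, percent of the normal mean, log axis) against the summed signal of 14 smooth muscle markers (horizontal, percent of the normal mean, log axis), with marker shapes for arrays 1 to 3 of each group. Vcl and Lims2 climb with the smooth muscle markers, Lims2 over a far wider range (from 0.612%), whereas Lims1 stays between 69.6% and 104% and Parvb shows no slope.

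Among themselves, Vcl, Parva, Tns1, Lims2 and Ilk moved most alike. Over the 6 arrays of tumor-bearing rats r was 0.995 between Parva and Vcl, 0.94 between Ilk and Lims2, and 0.96 between Parva and Tns1. By contrast it was 0.03 between Parva and Parvb, 0.43 between Lims1 and Lims2, and 0.13 between Tln1 and Vcl. Over all 9 arrays, among 11066 other genes with a mean signal of at least 50, the 3 most like Lims2 were Tmem200c (r = 0.998), Zeb1 (0.996) and Plin4 (0.994), and those most like Tns1 were Csrp1 (0.994), Kcne4 (0.99) and Cav1 (0.988). For Vcl they were Eml1, Gjc1 and Slc43a1 (0.993 to 0.995), for Parva Svil, Inpp5a and Slc2a4 (0.995 to 0.996), and for Ilk Myorg, Tgfb1i1 and Tmem38a (0.988 to 0.989). Tln1 was most like Vamp2 (0.993), Trim3 and Hdac7, Zyx most like Fbxo21 (0.984), Spire1 and Mmadhc, and Lims1 most like Rab28 (0.988), Tut4 and C10h17orf58. Pxn was most like Gpr108 (0.964), C8h15orf39 and Impa2. Parvb had the weakest likeness, with Zfp57 (0.906), Ascc1 and Puf60. These values describe 9 arrays in 3 groups, so a difference between groups alone makes r high.

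The integrins that the adaptors serve went in both directions. Of 15 measured subunits, 4 rose and 4 fell in tumors, and 3 rose and 6 fell in adjacent tissues. The shares over all genes, for this list and those that follow, were 13.6% higher and 9.95% lower in tumors. In adjacent tissues they were 13.3% and 11.5%. In tumors Itgb4 and Itga6, the hemidesmosome pair of basal epithelium, rose by 1.87 (SE 0.19, adjusted p = 0.00280) and 1.39 (SE 0.22, adjusted p = 0.00857). Itga11 and Itga1, collagen-receptor subunits of mesenchymal cells, fell by 3.19 (SE 0.66, adjusted p = 0.0192) and 2.91 (SE 0.73, adjusted p = 0.0355), Itga11 to a mean under a signal of 50. In adjacent tissues Itgb6, an epithelial subunit that helps activate TGF-beta, rose by 1.14 and Itga6 by 1.04, while Itga11 fell by 3.29 and Itga7, the laminin-receptor subunit of muscle, by 3.05. The adjacent mean of Itga11 was under a signal of 50 too. Their median changes were -0.53 in tumors and -0.63 in adjacent tissues.

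Of 40 other adaptors measured, 4 rose and 10 fell in tumors and 7 rose and 14 fell in adjacent tissues, with medians of -0.07 and -0.10. Those that fell most were Kank2, a talin-binding protein, by 2.78 in tumors (SE 0.60, adjusted p = 0.0224) and 3.11 in adjacent tissues (SE 0.50, adjusted p = 0.00541), Palld, an actin cross-linker, by 2.67 in tumors, and Csrp1, a LIM protein of smooth muscle, by 2.61 in adjacent tissues. Those that rose most were Tns4, a short tensin of epithelial cells without the actin-binding part, by 1.90 in tumors (SE 0.48, adjusted p = 0.0360) and 1.79 in adjacent tissues (SE 0.47, adjusted p = 0.0343), and Ajuba, a LIM protein of the zyxin family, by 1.77 (SE 0.34, adjusted p = 0.0151) and 1.44 (SE 0.18, adjusted p = 0.00238). Other relatives of Tns1 and Zyx are added here, chosen after their values were seen. Tns2, another tensin, fell by 1.91 in tumors (SE 0.48, adjusted p = 0.0351) and 1.83 in adjacent tissues (SE 0.20, adjusted p = 0.00150), while Tns3, at -0.16 and -0.36, was not called. Lpp, a LIM protein of the zyxin family, had a change of -1.01 in tumors (adjusted p = 0.0921) and fell by 1.26 in adjacent tissues (adjusted p = 0.00919). Its relatives Trip6 (0.05 and -0.18) and Limd1 (0.33 and 0.34) were not called.

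Among adhesion kinases and phosphatases, more genes rose than fell, as among all genes. Of 18 measured, 5 rose and 2 fell in each comparison with normal bladder, with medians of 0.38 in tumors and 0.30 in adjacent tissues. Of all genes, 13.6% were called higher and 9.95% lower in tumors, and 13.3% and 11.5% in adjacent tissues. Pak4, an actin-regulating kinase, rose by 0.90 and 0.88, and Ptpn12, a phosphatase that binds paxillin, by 0.86 and 1.07. Of 7 measured actin-linked transcription genes, 4 fell and 0 rose in each comparison. Myocd, the coactivator that turns on smooth muscle genes with serum response factor, fell by 4.64 in tumors (SE 1.16, adjusted p = 0.0349) and 3.95 in adjacent tissues (SE 0.67, adjusted p = 0.00651), Tead1 by 1.66 in tumors and Srf by 1.46 in adjacent tissues. Without 1 of the normal bladders, whichever it was, at most 2 integrin subunits, 3 other adaptors, 1 kinase or phosphatase and 1 transcription gene were called in tumors.

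**Figure D4:**
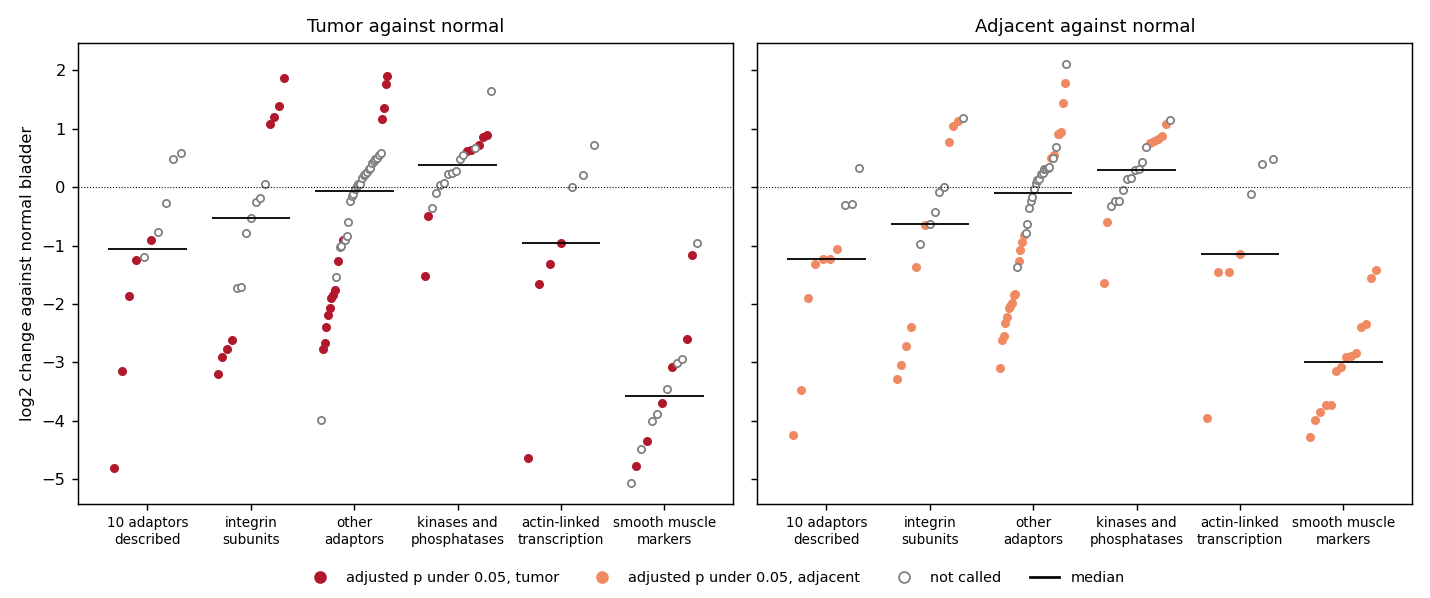
Log2 change against normal bladder of each measured gene of 6 lists (tumors left, adjacent tissues right), filled where the adjusted p is under 0.05, with a line at each list's median. Integrin subunits and other adaptors spread to both sides of 0, kinases and phosphatases sit mostly above it, and all 14 smooth muscle markers sit below it.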

How the data were processed

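Total RNA of 9 rat bladder tissues was labelled with a 3′IVT kit and hybridised to Affymetrix rat arrays. The deposited values are log2 signals that the authors normalized with MAS5, and the 2% trimmed mean of the linear signal is 500 on every array. Signal of MAS5 is noisy near background, and no detection calls were used here. Groups and array numbers follow the sample titles. The 57 array controls were left out. limma (version 3.58.1, R 4.3.3) was fitted to each pair of groups by itself, with a mean-variance trend and Benjamini-Hochberg adjustment over 31042 probe sets, at a threshold of 0.05, and was tested on simulated data. Each limma p-value sets a difference of means against a variance between these samples, drawn towards a trend over all probe sets. The genes and all lists were chosen with earlier results of these data known. The text names the 10 genes and, of the other lists, some of the 2 highest and 2 lowest called genes in each comparison. Marker lists are given mainly as sums and counts, and 1 gene is not reported here. Of 176 other listed genes 158 were measured, 2 of them under another symbol. Alternatives were quantile normalization, median centring, a filter on low signal, a pseudocount of 50, no variance trend, all arrays in 1 fit, the replicate block, the methods' t-test, averaging the probe sets of each gene, and each array left out. Summed markers are sums of linear signals of the brightest probe sets. The number of arrays limits the precision.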

Additional observations from a re-analysis of the deposited data

How the results depend on the processing

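In tumors against normal bladders, 5 of the 10 adaptors were called, 1 without a variance trend, 3 with the replicate block, 8 by the methods' t-test and 1 by it after Benjamini-Hochberg adjustment, and 0 to 8 with 1 array left out. The share of all probe sets called moved in the same direction. It was 18% with the main settings, 7.65% without the trend, 11.9% with the block, 28.3% by the t-test and 5.68% by the adjusted t-test. The 1 gene called by the adjusted t-test was Lims1 (adjusted p = 0.0456), which is not among the 5. In adjacent tissues against normal bladders, 7 were called, 4 without a variance trend, 3 by the adjusted t-test, and 4 to 8 with 1 array left out. Of all probe sets, 18.9% were called there with the main settings, 11% without the trend and 7.71% by the adjusted t-test. Between tumors and adjacent tissues 0 were called, 1 by the methods' t-test, which named 3.31% of all probe sets. For these changes of count the cause was not tested. No gene changed sign against normal bladder under any alternative run. Between tumors and adjacent tissues, no difference was called and signs turned: Lims1 was -0.030 after quantile normalization and -0.13 for the mean of its probe sets, against 0.03, and Vcl was -0.043 after quantile normalization, against 0.02. With 1 array left out, the differences ranged from -0.079 to 0.13 for Lims1, -2.16 to 0.71 for Lims2, -0.33 to 0.37 for Ilk, -0.37 to 0.28 for Parva, -0.65 to 0.92 for Tns1, -0.48 to 0.33 for Vcl and -0.14 to 0.36 for Zyx. Median centring shifted the median of all probe sets by 0.2 and gave 3634 probe sets higher and 2195 lower in tumors, against 2756 and 2818, and 4356 higher and 2557 lower in adjacent tissues, against 2686 and 3187.

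The array numbers were not shown to pair the samples. Tumor and adjacent arrays of the same number deviated from their group means together at r = 0.24, 0.04 and 0.14, and tumor 2 went best with adjacent tissue 3 (r = 0.11), so the replicate block shares only a number. With the block 3 genes were called in tumors against normal bladders, 7 in adjacent tissues against normal bladders and 0 between tumors and adjacent tissues. The shares of all probe sets called were 11.9%, 15.2% and 0%.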

Other observations

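Outside the adhesion genes, the same pieces of tissue held more signal of basal and dividing cells. Of 5 measured basal epithelium markers, 3 rose in tumors and all 5 in adjacent tissues, with median changes of 3.54 and 3.72. Krt14, the keratin partner of Krt5 in basal cells, rose by 4.81 in tumors (SE 0.23) and by 4.65 in adjacent tissues (SE 0.25). All 8 markers of dividing cells rose in tumors and 7 of 8 in adjacent tissues. Krt20, the keratin of umbrella cells, fell by 3.82 in tumors and by 1.70 in adjacent tissues, and 3 of 11 luminal urothelium markers rose in each comparison while 2 fell. These changes passed limma's test at an adjusted p under 0.05, and their part in the adaptors' values was not tested.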
